A study of Mus musculus with 4 samples.

Results

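The mRNAs recovered with an antibody against Caprin-1 were compared between 4T1 cells with a CerS4 shRNA (shCerS4) and 4T1 cells with a control SCR shRNA (shSCR), the main comparison of the study. It used 2 of the study's 4 libraries, 1 a side, so no difference here has a replicate check and none was tested. The deposited values of the transcripts of each gene symbol were summed, and 10283 of 12967 symbols with a mean of at least 5 CPM (reads of a gene scaled to a common library total) over the 4 libraries were kept. The other 2 libraries, IgG precipitates of the same lines, served for that filter and for values set beside those with Caprin-1. 4T1 is a metastatic mammary carcinoma line from a BALB/c mouse. Both lines carried a stable shRNA and grew in 10% serum with 4 µg/mL puromycin. Whether a line was a clone or a pool, and whether the precipitates came from separate cultures, was not given in the sources used here.

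Caprin-1 is a cytoplasmic RNA-binding protein that pairs with G3BP1 and takes part in the assembly of stress granules, in which untranslated mRNAs gather. CerS4 is one of the ceramide synthases, which join a fatty acid to a sphingoid base to make the ceramides from which sphingomyelin and glycosphingolipids are built. The study asked how altered lipid metabolism affects mRNA binding by a complex of Caprin-1 and PD-L1, a ligand that restrains T cells and is encoded by Cd274. No library of total cellular RNA was used here, so a change in a transcript's level in the cells and a change in its recovery with Caprin-1 cannot be told apart from this pair alone.

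The Caprin-1 libraries held an estimated 27 M (shSCR) and 24.7 M (shCerS4) reads, and the IgG libraries 19.8 M and 19.7 M. The 10 most abundant genes took 7.8% and 7.25% of the Caprin-1 libraries, led in both by Eef1a1. All 9 carcinoma epithelium markers, such as Epcam and Krt8, were present in each library, with summed levels of 9954 and 6361 CPM in the shSCR and shCerS4 Caprin-1 libraries. None of 7 lymphocyte markers had a value, and the only endothelial marker with one, Kdr, was listed at 0 in both. Of 7 fibroblast markers only Pdgfra passed 5 CPM, and the markers summed to 23.9 and 20.6 CPM. Of 7 macrophage and monocyte markers, Cd68 (49.1 and 14.6 CPM) and Cd14 (39.1 and 17.3 CPM) passed and were lower in shCerS4, while Csf1r was at 0 and 0.811 CPM. The part of these markers' cells in the results was not tested. No values of Cers4 or Shh were analysed here, so the knockdown itself was not checked.

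Ratios are log2 of shCerS4 over shSCR, each library scaled to its total and with 0.5 reads added to each estimated read count, and brackets hold the 95% interval from counting error alone. A gene was taken as higher or lower when it was past 2-fold with an interval that excluded 0. By this rule 643 genes (6.25% of 10283) were higher in shCerS4, 509 (4.95%) were lower, which makes 11.2% in all, and 9131 were neither. A difference under 1.25-fold was found for 43.9% of genes and one under 1.5-fold for 69.9%, while 95 higher and 71 lower genes passed 4-fold. Genes called lower made up 7.92% of the shSCR Caprin-1 library and 2.9% of the shCerS4 library, and genes called higher 1.68% and 4.43%. The median over all genes was 0.146 (middle 50% from -0.22 to 0.48), and each group median below is to be read beside it. Trimmed-mean scaling brought that median to 0.001 and gave 439 higher and 648 lower genes, so the balance of higher against lower turned with the scaling (55.8% of called genes higher against 40.4%). This scaling lowered every ratio by 0.14, so all 509 lower genes had to stay lower under it. A higher gene needed a ratio of at least 1.14 to stay higher. This ends the call of every gene named below with a ratio from 1.00 to 1.13.

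**Figure D1:**
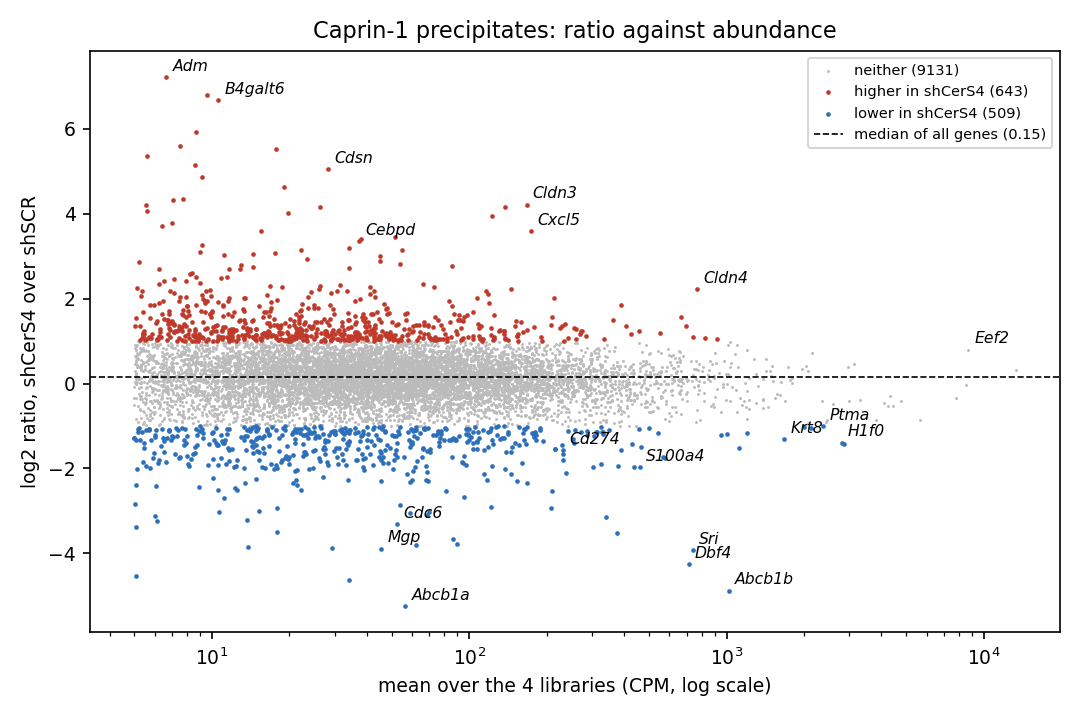
Log2 ratio of shCerS4 over shSCR in the Caprin-1 precipitates (y axis) against the mean CPM over the 4 libraries (x axis, log scale), 1 point per gene for 10283 genes. Red points are the 643 genes called higher, blue points the 509 called lower, grey points all others, and the dashed line is the median of all genes; Abcb1b, Dbf4 and Sri stand out as abundant genes with very low ratios, and Cldn4 as an abundant gene that was higher.

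Precision followed abundance. The counting interval reached a median of 0.329 to either side of the ratio for genes of 5 to 10 CPM, and 0.0358 for genes of at least 300 CPM. In the lowest bin 15.2% of 963 genes were higher and 8% lower, and in the highest bin 2.43% of 534 genes were higher and 6.74% lower. Just inside the abundance filter lay S100b, with a mean of 5.001 CPM and a ratio of -0.50, and just outside it Nmrk1, with a mean of 4.992 CPM and a ratio of 1.29. Some genes named below passed this filter only through the line where they were high. Among them, Il1a, Ccl20, Cdsn, Postn, Usp18, Ifit3 and B4galt6 were under 5 CPM in both shSCR libraries. So were Esrp2, Dsc2, Boc, Porcn, Lef1, Nrg1 and Adm. Cldn9, Fbln1, Abcb1a, Elapor2, Mmp10, Hspb1 and Wnt10b were under 5 CPM in both shCerS4 libraries. This bears on the counts and medians of the lists that hold such genes.

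Genes of DNA replication were lower almost throughout. Of 36 measured, 31 were lower in shCerS4 Caprin-1 precipitates and none was higher, with a median ratio of -1.65. The list covers the licensing of origins, the replicative helicase, polymerases and the supply of nucleotides. Cdc6, which loads the helicase at origins, stood at 94.6 CPM in shSCR and 9.51 CPM in shCerS4, a ratio of -3.31 [-3.51, -3.12]. Its IgG libraries held 99.1 and 6.86 CPM. Both shCerS4 libraries thus lay far below both shSCR libraries. Dbf4, the activating subunit of the kinase that fires origins, stood at 1131 and 58.9 CPM with Caprin-1 (-4.26 [-4.34, -4.19]) and at 1581 and 80.7 CPM with IgG. It lies in a run of low genes on chromosome 5 described further on.

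Nucleotide supply went the same way. Rrm2, a subunit of ribonucleotide reductase, stood at 223 and 29.9 CPM (-2.90), and the thymidine kinase gene Tk1 at 441 and 76.2 CPM (-2.53). Tyms (-1.80) and Dut (-1.29) were lower as well, as were 6 genes that encode the MCM helicase ring, from Mcm3 (-1.97) to Mcm7 (-1.02). Chaf1a, the large subunit of the factor that loads histones on new DNA, stood at -2.29. The 5 members that were not past 2-fold were Orc6 (-0.89), Rfc3 (-0.87), Cdt1 (-0.27), Pola1 (-0.21) and Gins3 (-0.21). Pclaf, a partner of the PCNA clamp that the list does not hold, stood at 95.5 and 13.2 CPM (-2.85). In bulk libraries like these, fewer cells in S phase and less of these mRNAs per cell cannot be told apart. In the IgG precipitates 31 of the 36 were lower too, against 5.34% of all genes lower and 5.69% higher there, with a median of -1.65.

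Promoter sequences of 2 of these genes are shown as examples of a short sequence that E2F factors, the main regulators of S phase genes, are known to bind. They are from RefSeq on GRCm38.p6 and run from 250 bases before to 50 after the annotated start, with matches to GCGGGAA or GCGCCAA, on either strand, in capitals. Cdc6 is at chr11:98907901-98908200, plus strand, and Mcm3 at chr1:20820263-20820562, minus strand.
Cdc6: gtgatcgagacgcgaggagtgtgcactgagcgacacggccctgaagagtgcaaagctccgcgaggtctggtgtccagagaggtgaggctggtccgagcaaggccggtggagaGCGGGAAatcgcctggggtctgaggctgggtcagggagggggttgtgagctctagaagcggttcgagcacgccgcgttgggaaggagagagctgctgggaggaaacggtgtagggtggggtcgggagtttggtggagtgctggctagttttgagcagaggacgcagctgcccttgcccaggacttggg
Mcm3: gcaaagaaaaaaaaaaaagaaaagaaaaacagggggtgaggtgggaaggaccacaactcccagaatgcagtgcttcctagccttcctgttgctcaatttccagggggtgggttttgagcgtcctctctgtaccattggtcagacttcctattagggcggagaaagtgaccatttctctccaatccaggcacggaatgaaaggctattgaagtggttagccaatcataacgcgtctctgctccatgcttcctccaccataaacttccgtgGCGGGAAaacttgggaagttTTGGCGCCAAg
The letters GCGGGAA, searched on both strands, occurred in 14 of the 31 list members with a promoter in the table (45.2%), and in 10 of the 26 of these that were lower. They occurred in 9.32% of the 8292 measured genes with a promoter, in 17.2% of 377 lower genes, in 4.61% of 499 higher genes and in 4.66% of all 27025 promoters. GCGCCAA occurred in 6 of the 31 (19.4%) and in 4.85% of the measured genes. In Mcm3 the last block of capitals holds 2 overlapping matches to GCGCCAA on opposite strands. A match is a description of the letters and not of binding.

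Repair and checkpoint genes that act at replication forks were also low. Of 22 genes of homologous recombination and the Fanconi pathway, 16 were lower and none higher, with a median of -1.52 (-1.68 with IgG). Uhrf1, which brings maintenance methylation to new DNA, stood at 323 CPM in shSCR and 42.5 CPM in shCerS4 (-2.93 [-3.02, -2.83]). The checkpoint kinase gene Chek1 (-2.31), the nuclease gene Exo1 (-2.20) and Brca1 (-1.92) followed. Brca2 (-0.41) and Fanca (-0.51) were under 2-fold. Eme1, which encodes a subunit of a structure-specific nuclease and was not on the list, stood at -2.35.

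Genes of G2 and mitosis were lower as well. Of 30 measured, 21 were lower and none higher, with a median of -1.29 and a range from -2.27 to -0.49. The kinetochore gene Nuf2 stood at 85.8 and 17.8 CPM (-2.27 [-2.42, -2.12]), Birc5 (survivin) at 218 and 50.2 CPM (-2.12) and the kinase gene Aurkb at 163 and 44.9 CPM (-1.86). Top2a, the most abundant member, stood at 449 and 159 CPM with Caprin-1 (-1.49) and at 1001 and 258 CPM with IgG (-1.96). Cdk1 (-0.74), Cdc20 (-0.91) and Ube2c (-0.49), which drive entry into and exit from mitosis, were under 2-fold. Ndc80, the partner of Nuf2, was past 2-fold with Caprin-1 (-1.67) and not with IgG (-0.92).

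Plk1, a mitotic kinase with a ratio of -1.54, is shown for the pair of elements that mark many promoters of this class, the CHR and the CCAAT box. Its promoter is at chr7:122159185-122159484, plus strand, with TTTGAA and CCAAT in capitals.
Plk1: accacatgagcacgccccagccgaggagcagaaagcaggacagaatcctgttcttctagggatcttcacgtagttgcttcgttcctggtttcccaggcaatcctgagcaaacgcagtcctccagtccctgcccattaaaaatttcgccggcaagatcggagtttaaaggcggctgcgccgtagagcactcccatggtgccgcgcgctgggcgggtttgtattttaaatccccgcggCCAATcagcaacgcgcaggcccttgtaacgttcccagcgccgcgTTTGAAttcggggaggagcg
TTTGAA, on either strand, occurred in 18 of 23 members with a promoter (78.3%), against 11.3% of measured genes, 21.2% of lower genes, 8.22% of higher genes and 18.1% of all promoters. CCAAT occurred in 78.3% of the members, 39.3% of measured genes and 37.9% of all promoters.

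Of 16 genes of replication-dependent and variant histones and high mobility group proteins, 5 were lower and none higher (median -0.71). H1f0, a linker histone gene and one of the most abundant lower genes, stood at 3941 and 1499 CPM (-1.39 [-1.41, -1.38]), with 4014 and 1766 CPM in the IgG libraries. H2az2 (-1.62), Hmgn2 (-1.62), H2ax (-1.34) and Hmgb2 (-1.21) were the others, whereas H3f3b (0.01) and H1f2 (0.27) were not. H2ac23, a core histone gene outside the list, stood at 130 and 16 CPM (-3.03).

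Among 18 targets of p53, the stress-activated tumour suppressor, 4 were higher and 1 lower, with a median of 0.52. That is 22.2% higher and 5.56% lower, beside 6.25% and 4.95% of all genes. The lower one was Cdkn1a, which encodes the cyclin-dependent kinase inhibitor p21, at 36.7 and 7.62 CPM (-2.27 [-2.50, -2.04]) and at 33.3 and 7.11 CPM with IgG. Gadd45a (1.23), Plk2 (1.44), Trp53inp1 (1.46) and the death receptor gene Fas (1.86) were higher. Mdm2 (0.05), Bax (0.19) and Sesn1 (-0.01) stayed close to the median of all genes, so the list did not move as 1 group. Of 21 apoptosis regulators, 1 was higher (4.76%, beside 6.25% of all genes), the BCL-2 relative Bcl2l2 (1.13), and none lower.

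Lipid synthesis was lower on its cholesterol and fatty acid side. Of 27 such genes, 10 were lower and none higher, with a median of -0.75 (-0.94 with IgG). The isoprenoid gene Idi1 stood at 14.6 and 1.79 CPM with Caprin-1 (-3.02 [-3.52, -2.58]) and at 19.2 and 7.07 CPM with IgG (-1.44). Insig1, a sterol sensor of the endoplasmic reticulum, stood at 267 and 92.6 CPM (-1.53), and Srebf1, the transcription factor of lipogenesis, at 256 and 107 CPM (-1.26). Fasn and Scd1, which make and desaturate fatty acids, both stood at -1.17. Stard4 (-0.75) and Sqle (-0.64) were low without passing 2-fold, and Acaca (0.14) and Mvd (0.03) were near the median of all genes. Cyp51, a sterol demethylase gene not on this list, stood at -3.14 and lies in the chromosome 5 run. A sterol element, TCACNCCA, occurred in 3 of 18 promoters of the list (16.7%) and in 3.41% of measured genes, and in none of the 18 (1.41% of measured genes) within 150 bases around the start.

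Sphingolipid enzymes, the pathway of the knocked-down enzyme, included 4 higher genes and no lower gene among 28 measured, with a median of 0.38 (0.30 with IgG). Under trimmed-mean scaling 1 of the 4 stayed higher, and that was B4galt6, a lactosylceramide synthase gene. B4galt6 had 3 estimated reads (0.111 CPM) in the shSCR Caprin-1 library and 327 (13.3 CPM) in the shCerS4 library, and 0.101 and 29.1 CPM with IgG, and it passed the abundance filter only through the shCerS4 libraries. The other 3 were Sgpl1 (1.12), which ends sphingolipid breakdown, the kinase gene Sphk1 (1.08) and the ceramide synthase gene Cers6 (1.07). Of the other ceramide synthases, Cers2 stood at 243 and 389 CPM (0.68) and Cers5 at a ratio of 0.00. The ceramidase gene Asah1 (0.95), Sgms1 (0.91) and the glucosylceramide synthase gene Ugcg (0.76) lay above the median of all genes. Of the genes of ceramide synthesis from serine, Sptlc1 (-0.07), Kdsr (-0.31) and Degs1 (-0.23) lay below it and Sptlc2 (0.22) lay above it.

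**Figure D2:**
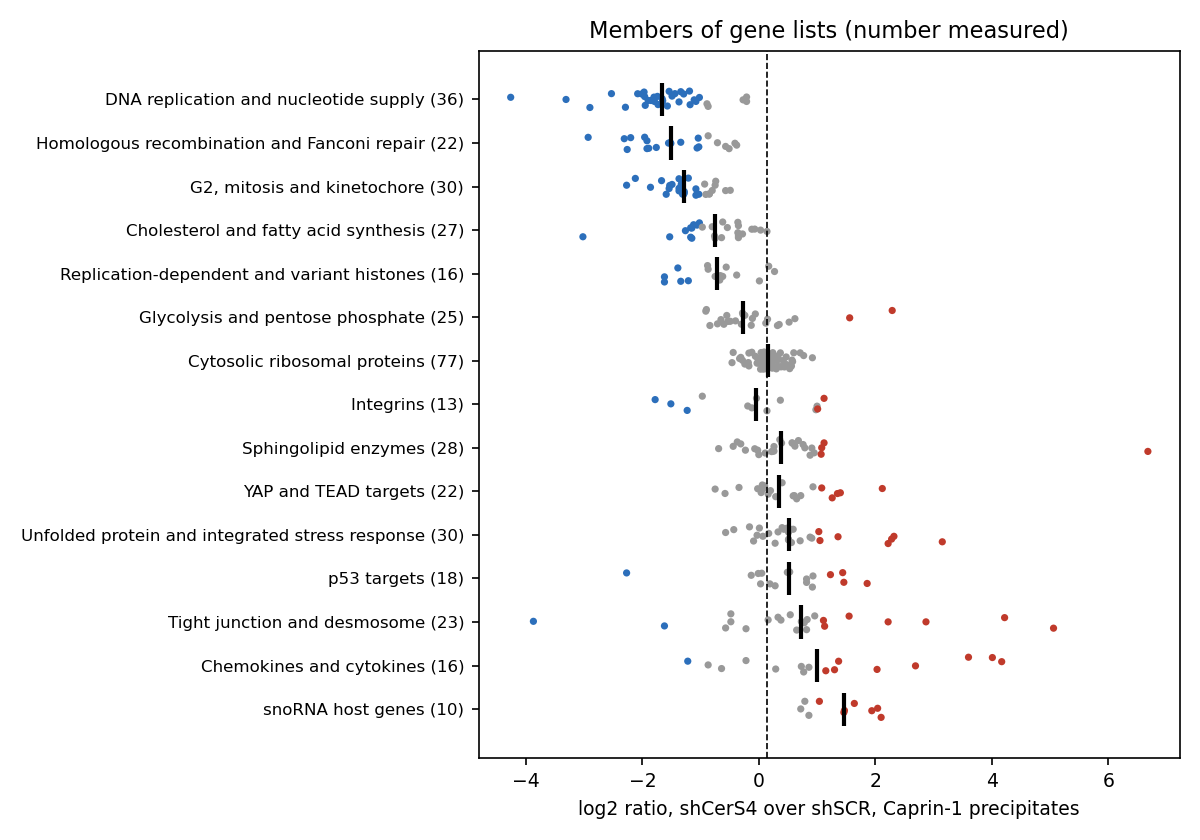
Log2 ratio of shCerS4 over shSCR in the Caprin-1 precipitates (x axis) for each measured member of 15 gene lists (rows, number measured in parentheses). Red points are members called higher, blue points members called lower, grey points neither; black ticks are list medians and the dashed line is the median of all genes, and the replication, repair and mitosis lists lie wholly to its left.

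Inflammatory chemokines and cytokines were at the other end. Of 16 measured, 8 were higher and 1 lower, with a median of 1.01 (1.06 with IgG), and another 10 listed genes, among them Cxcl2 and Il1b, were under 5 CPM. Il1a and Ccl20, among the 8 higher, were under 5 CPM in both shSCR libraries. They passed the abundance filter only through the shCerS4 libraries, which bears on the count and the median. Cxcl1, which draws in neutrophils, stood at 16 CPM in shSCR and 290 CPM in shCerS4 (4.17 [4.04, 4.32]), with 11.8 and 237 CPM in the IgG libraries. Cxcl5, a ligand of the same receptor, stood at 28.7 and 350 CPM (3.60). The cytokine gene Il1a stood at 2.04 and 33 CPM (4.01 [3.63, 4.44]). For all 3 genes both shCerS4 libraries lay far above both shSCR libraries. Ccl20 (2.69), Ccl2 (2.03), Csf3 (1.37), Csf1 (1.30) and Il23a (1.15) were higher too, and Tslp, an epithelial cytokine gene, was lower at 26.6 and 11.4 CPM (-1.22). Ccl5 (-0.64), Cx3cl1 (-0.87) and Vegfa (-0.22) were under 2-fold.

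Of 21 genes of the NF-kappaB pathway, which acts upstream of many such genes, 3 were higher and 1 lower, with a median of 0.37. That is 14.3% higher and 4.76% lower, beside 6.25% and 4.95% of all genes. Nfkbiz, a nuclear coactivator of secondary NF-kappaB genes, stood at 19.7 and 67.3 CPM (1.77), and the deubiquitinase genes Cyld and Tnfaip3, both brakes of the pathway, at 1.30 and 1.03. The adhesion receptor gene Icam1, a common NF-kappaB target, was lower at 27.7 and 7.95 CPM (-1.80). The subunit genes Rela (0.40), Nfkb1 (0.64) and Relb (0.55) were under 2-fold. Cebpd, an inflammatory C/EBP factor gene, stood at 8.46 and 86.2 CPM (3.35 [3.15, 3.55]), with 4.85 and 49.6 CPM in the IgG libraries, while its relative Cebpb stood at 600 and 802 CPM (0.42). The promoter of Cxcl1, at chr5:90890995-90891294, plus strand, is shown with matches to a form of the NF-kappaB element in capitals, one on each strand.
Cxcl1: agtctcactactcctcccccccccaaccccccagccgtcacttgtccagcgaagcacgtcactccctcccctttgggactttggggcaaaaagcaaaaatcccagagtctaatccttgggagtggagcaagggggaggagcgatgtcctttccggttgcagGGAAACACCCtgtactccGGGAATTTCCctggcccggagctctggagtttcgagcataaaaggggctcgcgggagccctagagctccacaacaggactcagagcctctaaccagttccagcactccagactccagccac
The element occurred on either strand in 3 of 9 chemokine promoters (33.3%), which were those of 3 higher genes, in 5 of 17 promoters of the NF-kappaB list (29.4%), in 1.58% of measured genes and in 1.62% of all promoters.

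Interferon response and antigen presentation genes included 3 higher genes and no lower gene among 31, with a median of 0.44. That is 9.68% higher, beside 6.25% of all genes, and 2 genes stayed higher under trimmed-mean scaling. All 3 higher genes were of low abundance, and Usp18 and Ifit3 passed the abundance filter only through the shCerS4 libraries. Usp18, a negative regulator of the interferon receptor, stood at 3.18 and 13 CPM (2.03), Rsad2 at 4.11 and 13.2 CPM (1.68) and Ifit3 at 3.92 and 8.13 CPM (1.05). Abundant members such as H2-D1 (0.30), B2m (0.09) and Tap1 (0.49) were under 2-fold, and Isg15 stood at -0.62. The interferon-stimulated response element occurred on either strand in 12 of 26 promoters of the list (46.2%) and in 2.95% of measured genes, and in 7 of 26 (26.9%) and 1.24% within 150 bases around the start.

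Cd274, which encodes PD-L1, was the only one of 14 measured immune checkpoint genes past 2-fold (7.14%, beside 11.2% of all genes). It stood at 377 CPM in shSCR and 127 CPM in shCerS4 Caprin-1 precipitates (-1.57 [-1.63, -1.51]), and at 324 and 101 CPM with IgG (-1.68). Both shCerS4 libraries were below both shSCR libraries. The list's median was 0.40. Cmtm6 (0.56) and Cmtm4 (0.96), which keep PD-L1 protein at the cell surface, and Jak1 (0.79) and Ifngr1 (0.56) of the interferon gamma receptor pathway lay above the median of all genes without passing 2-fold.

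Genes of the unfolded protein and integrated stress responses included 7 higher and no lower genes among 30, with a median of 0.51 (0.42 with IgG), and 5 higher genes under trimmed-mean scaling. Atf3 stood at 10.4 and 92.6 CPM (3.15 [2.97, 3.33]), Ppp1r15a, which brings phosphatase to eIF2alpha, at 21.5 and 104 CPM (2.28) and Ddit3, which encodes CHOP, at 46.4 and 217 CPM (2.22). The pseudokinase gene Trib3 stood at 274 and 706 CPM (1.36) and the lipoprotein receptor gene Vldlr at 2.32. The sensor genes Eif2ak3 (1.05) and Ern1 (1.03) were just past 2-fold. Chaperones of the endoplasmic reticulum were not, with Hspa5 at 0.71, Hsp90b1 at 0.56, Calr at 0.01 and Pdia6 at -0.43, nor was Atf4 itself (0.07). The amino acid synthesis genes Asns (0.51), Phgdh (0.40) and Psat1 (-0.03), which ATF4 is known to drive, were also under 2-fold.

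The promoter of Atf3 is shown for a composite element that ATF4 with C/EBP partners is known to bind, TGATGNAA. It lies at chr1:191183284-191183583, minus strand, with the match, on the opposite strand, in capitals.
Atf3: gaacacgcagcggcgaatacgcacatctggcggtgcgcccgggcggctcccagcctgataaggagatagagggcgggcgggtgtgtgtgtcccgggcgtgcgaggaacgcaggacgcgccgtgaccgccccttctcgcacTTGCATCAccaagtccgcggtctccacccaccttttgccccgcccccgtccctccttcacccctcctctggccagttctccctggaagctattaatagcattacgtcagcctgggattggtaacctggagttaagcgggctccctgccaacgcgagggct
The element occurred in 6 of 28 promoters of the list (21.4%), of which 2 were those of the 7 higher genes, in 1.87% of measured genes and in 4.06% of all promoters. Within 150 bases around the start it occurred in 2 of 28 (7.14%) and in 0.736% of measured genes.

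Immediate early genes, which cells switch on within minutes of a stimulus, were mixed. Of 21 measured, 5 were higher and 2 lower (median 0.33), and under trimmed-mean scaling 3 and 2. Beside Atf3, the AP-1 genes Fosl2 (35.9 and 133 CPM, ratio 1.89) and Jund (340 and 777 CPM, ratio 1.19) were higher. Egr1 stood at 14.1 and 6.16 CPM (-1.19) and Fosb at 8.07 and 3.73 CPM (-1.11), and Jun (-0.08) and Junb (0.44) were under 2-fold.

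Epithelial junction genes moved in both directions with very different members. Of 23 tight junction and desmosome genes, 7 were higher and 2 lower, with a median of 0.73, and under trimmed-mean scaling 5 and 2. Cldn4 gained more CPM than any other gene called higher, from 318 to 1488 CPM with Caprin-1 (2.22 [2.19, 2.26]) and from 237 to 1027 CPM with IgG. Cldn3 stood at 23 and 431 CPM (4.22 [4.11, 4.34]). Cdsn, which encodes the desmosomal adhesion protein corneodesmosin, had the highest ratio of any gene of at least 20 CPM that is not a predicted gene, with 1.74 and 58.4 CPM (5.06 [4.65, 5.52]). Claudins were not uniform, since Cldn9 fell from 62.7 to 4.26 CPM (-3.87) and Cldn12, of the chromosome 5 run, from 154 to 49.9 CPM (-1.62). The desmosome genes Dsc2 (1.55), Dsg2 (1.13) and Dsp (1.11) were higher, and Jup (-0.57) and Pkp1 (-0.48) were under 2-fold.

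Among 18 keratin and adhesion genes, 6 were higher and 1 lower (median 0.41). The epithelial splicing regulator gene Esrp1 stood at 8.99 and 72 CPM (3.0), followed by its relative Esrp2 (1.65). Cdh1, which encodes E-cadherin, stood at 152 and 317 CPM (1.06). Krt8 was lower, at 2790 and 1136 CPM (-1.30 [-1.32, -1.28]), and its filament partner Krt18 stood at 4276 and 2374 CPM (-0.85). Of 12 mesenchymal genes, Postn (periostin) was higher, at 1.55 and 39.1 CPM (4.64), and S100a4, a calcium-binding protein of motile cells, was lower, at 871 and 222 CPM (-1.97). That is 8.33% each way, beside 6.25% higher and 4.95% lower of all genes. Vim (-0.41), Snai1 (0.46), Zeb2 (0.10) and Fn1 (0.30) were under 2-fold.

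Matrix and adhesion genes were split as well. Of 21 matrix genes 3 were higher and 2 lower with Caprin-1 (median 0.54), against 0 higher and 2 lower with IgG (median 0.05). Thbs1 stood at 148 and 420 CPM with Caprin-1 (1.51) and at 299 and 583 CPM with IgG (0.96), and Agrn at 98.6 and 252 CPM (1.35) and at 213 and 353 CPM (0.73). Both genes were thus on the same side with IgG, by less than 2-fold. Mgp, a calcification inhibitor gene, fell from 107 to 7.18 CPM (-3.89) and Fbln1 from 29.5 to 3.16 CPM (-3.21), and both were as low with IgG (-3.71 and -4.07). Fbln2, a relative of Fbln1 outside the list, went the opposite way, from 164 to 597 CPM (1.86).

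Of 13 integrin genes, 3 were lower and 2 higher (0 higher and 4 lower under trimmed-mean scaling). Itga3, the laminin-binding subunit, fell from 1313 to 462 CPM (-1.51) and Itgb3 from 19.5 to 5.68 CPM (-1.78), whereas Itgav, the partner of Itgb3, stood at 92.8 and 187 CPM (1.01). Of 23 extracellular proteases and inhibitors, 4 were higher and 4 lower. Mmp9 stood at 588 and 152 CPM (-1.95), Mmp10 at 24.5 and 4.30 CPM (-2.51), and the inhibitor genes Serpine2 and Slpi at -2.34 and -1.89. Adamts1 (1.79), Adam9 (1.06) and Mmp11 (1.02) were among the higher genes. The serine protease gene Htra1, not on the list, stood at 422 and 1257 CPM (1.57).

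**Figure D3:**
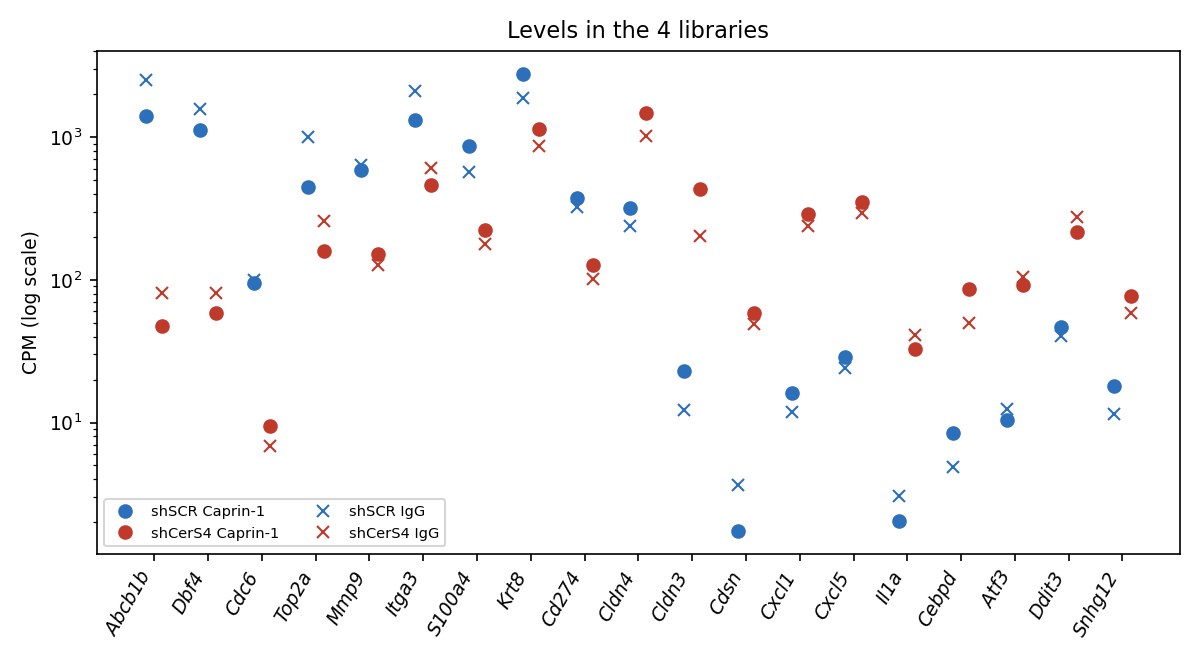
Levels of 19 genes in each of the 4 libraries in CPM (y axis, log scale). Circles are Caprin-1 and crosses IgG precipitates, blue is shSCR and red shCerS4, with 1 library per symbol; for each gene the 2 red symbols lie on the same side of the 2 blue symbols, below them from Abcb1b to Cd274 and above them from Cldn4 to Snhg12.

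Most lists of signalling pathways held larger shares past 2-fold than the 11.2% of all genes, both directions counted, and this was not tested. Of 22 targets and regulators of YAP and TEAD, 5 were higher and none lower (median 0.35). They were the targets Ccn2 (46.1 and 200 CPM, ratio 2.12), Ccn1 (1.40), Cavin2 (1.35), Tgfb2 (1.26) and Ankrd1 (1.08), while Yap1 (-0.02) and Tead1 (0.04) were near 0. GGAATG, a TEAD element, occurred in 11 of 18 promoters of the list (61.1%) and in 11.4% of measured genes, but in 3 of 18 (16.7%) and 4.66% when only the 150 bases nearest the start, 100 before to 50 after, were searched. Of 27 genes of the TGF-beta and BMP pathway, Tgfb2 was higher and Id2 (-1.91) and Tgfb1 (-1.22) lower. So the ligand genes Tgfb1, at 154 and 66.2 CPM, and Tgfb2, at 5.37 and 12.9 CPM, went opposite ways.

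In the Hedgehog pathway, where no ligand gene but Dhh (-0.23) was measured, 3 of 12 genes were higher. These were the receptor gene Ptch1 (1.5) and the co-receptor genes Boc (1.63) and Cdon (1.31). Hhip, a decoy receptor gene, was lower, at 55.7 and 13.3 CPM (-2.06). Cdon stood at 0.44 with IgG. In the Wnt pathway 5 of 27 genes were higher and 3 lower. Wnt7a (2.90), Porcn (2.18), which acylates Wnt ligands, Dvl1 (1.22), Lef1 (1.20) and the inhibitor gene Sfrp1 (1.19) were higher. The ligand genes Wnt10a (-1.74) and Wnt10b (-1.08) and the receptor gene Fzd1 (-1.67), of the chromosome 5 run, were lower. Ctnnb1, which encodes beta-catenin, stood at 1387 and 1516 CPM (0.13). In the Notch pathway the ligand genes Dll1 (1.49) and Dll4 (1.46) were higher with Caprin-1 and stood at 0.92 and 0.55 with IgG, while the feedback gene Nrarp was lower (-1.01).

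Of 21 growth factor receptor and ligand genes, 4 were higher and none lower. Erbb3 stood at 5.07 and 21.5 CPM (2.08) and its ligand gene Nrg1 at 4.29 and 11 CPM (1.36). Met, the hepatocyte growth factor receptor gene, stood at 40 and 106 CPM with Caprin-1 (1.40) and at 112 and 176 CPM with IgG (0.65). Insr, the insulin receptor gene, stood at 31.7 and 65.1 CPM (1.04) and at 95 and 116 CPM (0.29). Of 21 ABC transporter genes, Abcb10 (1.21) was higher and Abcb1a, Abcb1b and Abcc3 (-1.07) lower. That is 4.76% higher and 14.3% lower, beside 6.25% and 4.95% of all genes.

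Metabolic and antioxidant genes moved one by one. The 25 genes of glycolysis and the pentose phosphate pathway had a median of -0.27, with Tpi1 (-0.90), Ldha (-0.84) and Gapdh (-0.53) below the median of all genes and none lower past 2-fold. Pfkfb3, which makes the activator of phosphofructokinase, was higher, at 7.59 and 37.2 CPM (2.29), as was the lactate dehydrogenase gene Ldhb (1.56). Of 27 NRF2 and antioxidant genes, Aldh3a1 (104 and 21.1 CPM, ratio -2.30), Nqo1 (-1.70), Gstm1 (-1.32) and Ftl1 (-1.17) were lower, and Hmox1, the haem oxygenase gene, was higher at 16.8 and 52.5 CPM (1.64). Nfe2l2, which encodes NRF2, stood at -0.19. The antioxidant element TGANNNNGC was as frequent in the promoters of the list (45.5%) as in those of measured genes (43.3%). Among 14 C/EBP and lipid factors, the fatty acid importer gene Cpt1a (1.69) was higher and Lpin1 (-1.15) lower. Of 26 lysosome and autophagy genes, Hexa (1.26) and Atp6v0d1 (1.02) were higher. That is 7.69%, near the 6.25% of all genes, and 1 gene stayed higher under trimmed-mean scaling.

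Protein synthesis genes had few members past 2-fold, beside 11.2% of all genes with both directions counted. None of 77 cytosolic ribosomal protein genes was past 2-fold in either direction, over a range from -0.46 to 0.92 and with a median of 0.16, beside 0.37 with IgG. Of 30 ribosome biogenesis genes 1 was higher (Ltv1, 1.09), and of 31 genes of the mitochondrial ribosome and respiratory chain 1 was lower (Mrpl18, -1.09). Of 19 heat shock chaperone genes Hspb1 was lower (-2.23) and Hspa9 higher (1.06). That is 5.26% each way, near the 4.95% lower and 6.25% higher of all genes. Eef2, the elongation factor gene that ranked second in the shCerS4 library, stood at 7070 and 12351 CPM (0.80). Of 31 genes of stress granule proteins and Caprin-1 partners, with a median of -0.04, 1 was lower. Caprin1 itself stood at 392 and 310 CPM (-0.34) and G3bp1 at 522 and 308 CPM (-0.76).

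Transcripts that host small nucleolar RNAs in their introns were an exception among genes tied to the ribosome. Of 10 measured, 7 were higher and none lower, with a median of 1.47 (1.40 with IgG), and all 10 lay above the median of all genes. Another 5 of the 18 listed, among them Gas5, were under 5 CPM. Snhg12 stood at 18 and 77.2 CPM (2.10 [1.96, 2.25]), Snhg16 at 17.2 and 70.6 CPM (2.04), Snhg5 at 35.2 and 135 CPM (1.94) and Zfas1 at 47.5 and 132 CPM (1.47). Their spliced products are short and carry early stop codons, and they are known to be degraded by nonsense-mediated decay. Among all 102 long non-coding RNA genes measured, 12 (11.8%) were higher and 5 (4.9%) lower, beside 6.25% and 4.95% of all genes. Host genes were not left out of that count.

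Several of the genes with the lowest ratios, among them Abcb1a, Abcb1b and Dbf4, lay in a single stretch of chromosome 5, whereas others, such as Mgp, Cldn9 and Cdc6, lay elsewhere. From Cdk6 to Elapor2, 23 of 27 measured genes were lower and the median was -2.11. Abcb1b, a P-glycoprotein drug exporter gene, stood at 1408 and 47.8 CPM with Caprin-1 (-4.88 [-4.97, -4.80]) and at 2535 and 80.8 CPM with IgG (-4.97). Its neighbour and close paralog Abcb1a stood at 105 and 2.77 CPM (-5.24), so that the split of reads between the paralogs is uncertain. Sri, which encodes the calcium-binding protein sorcin, fell from 1648 to 108 CPM (-3.93). Crot, a peroxisomal carnitine transferase gene, stood at 607 and 52.9 CPM (-3.52). Without these 27 genes the rest of chromosome 5 lay high, with a median of 0.39.

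Ratios differed between whole chromosomes too. Genes of chromosome 8 had a median of 0.45 and those of chromosome 10 a median of 0.44, and chromosome 11 had a median of -0.15. On chromosome 10, 75.1% of 494 genes lay above the median of all genes, 13.2% were higher and 1.21% lower. On chromosome 11, 25.2% of 870 genes lay above that median, 1.95% were higher and 6.9% lower. Chromosomes 19 (0.34) and 3 (0.29) lay high, and chromosomes 1 (-0.08), 15 (-0.07), 16 (-0.04), 12 (-0.03) and 17 (-0.03) low. The IgG pair, which shares no library with the Caprin-1 pair, gave 0.42 for both chromosomes 8 and 10, and -0.20 for chromosome 11.

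**Figure D4:**
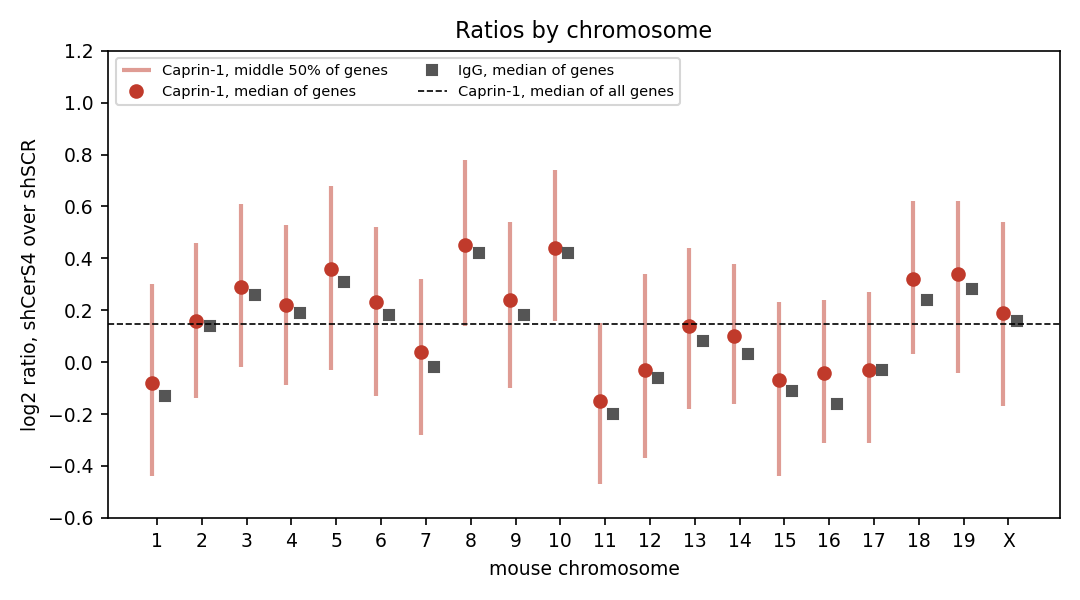
Median log2 ratio of shCerS4 over shSCR (y axis) for the measured genes of each mouse chromosome (x axis). Red circles are Caprin-1 precipitates with bars for the middle 50% of genes, grey squares IgG precipitates, and the dashed line is the Caprin-1 median of all genes; chromosomes 8 and 10 are the highest and chromosome 11 the lowest in both.

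The offsets ran the length of these chromosomes. When genes were taken in windows of 40 neighbours, all 14 windows of chromosome 8, all 12 of chromosome 10 and 15 of 16 on chromosome 5 lay above the median of all genes, the exception being the window with the low run. None of the 21 windows of chromosome 11, the 10 of chromosome 15 or the 8 of chromosome 16 did. Over the 248 windows the medians with Caprin-1 and with IgG had a Pearson correlation of 0.94, given as a description since the windows of a pair share its libraries. DNA was not measured. After each gene's chromosome median was subtracted, an alternative chosen after these values were seen, 398 genes were higher and 611 lower. Of these, 380 and 485 were among the genes called before. The subtraction also takes away the median of all genes, so these counts are to be read beside those of trimmed-mean scaling. That scaling, with a median of 0.001, gave 439 higher and 648 lower genes. After the subtraction the replication list had a median of -1.85 and the chemokine list one of 0.86, to be read beside a median of 0.000 over all genes. Before the subtraction these list medians minus the median of all genes were -1.80 and 0.86.

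**Figure D5:**
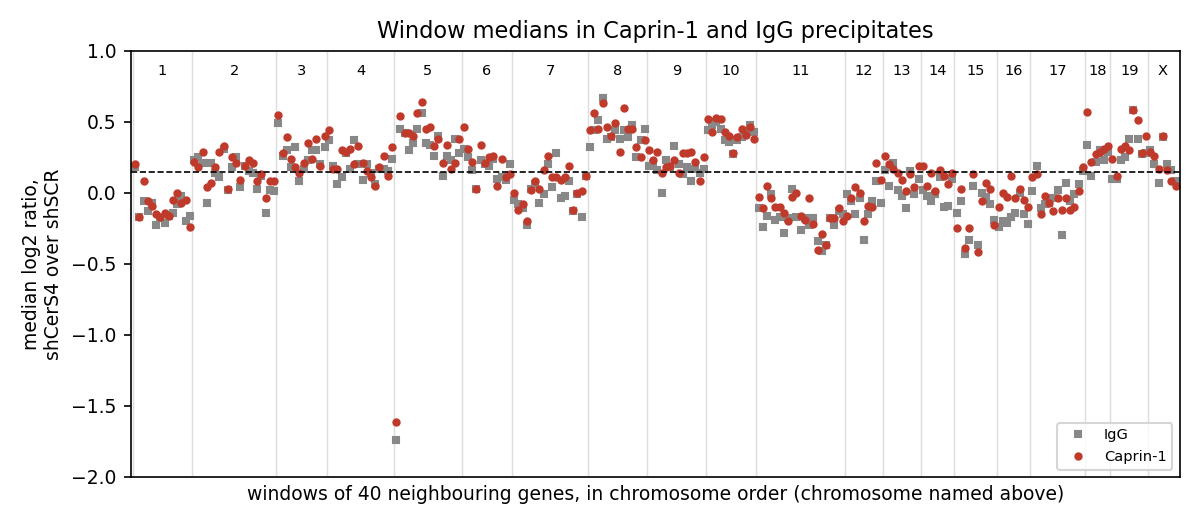
Median log2 ratio of shCerS4 over shSCR (y axis) in 248 windows of 40 neighbouring genes, in order along the chromosomes (x axis, chromosome named above each span). Red circles are Caprin-1 and grey squares IgG precipitates, and the dashed line is the Caprin-1 median of all genes; the window at -1.61 on chromosome 5 holds the low run, and windows of chromosomes 8 and 10 all lie above the line.

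Most differences with Caprin-1 had a counterpart with IgG. Of the 643 higher genes, 396 (61.6%) were also called higher with IgG, and of the 509 lower genes, 413 (81.1%) were called lower. The sign was the same for 640 and 506. Genes past 2-fold with Caprin-1 and under 1.25-fold in that direction with IgG numbered 18 higher and 9 lower. Itgav was the most abundant, at 92.8 and 187 CPM with Caprin-1 (1.01 [0.94, 1.08]) and at 230 and 259 CPM with IgG (0.17 [0.12, 0.23]). Insr, the scaffold gene Mpdz (1.10 and 0.29), the chromatin gene Jade3 (1.15 and 0.25) and the autophagy gene Wdfy3 (1.02 and 0.27) were others. In the opposite direction were Hmgn3 (-1.01 and -0.32), Zfp326 (-1.05 and -0.24), Tnfsf9 (-1.07 and -0.30) and Fosb (-1.11 and -0.27). The difference between the 2 ratios was not tested.

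The 247 genes called higher with Caprin-1 and not with IgG spanned more of the genome than others, with a median span of 47 kb, beside 25.4 kb for the 396 called with both and 23.5 kb for all genes. The 96 genes called lower with Caprin-1 and not with IgG had a median span of 11.9 kb. In the longest-spanning group of 2055 genes, from 65.2 kb upward, the median ratio was 0.30 with Caprin-1 and 0.12 with IgG, and 202 genes were higher with Caprin-1 against 125 with IgG. Over 10274 genes the Spearman correlation of ratio and span was 0.14 with Caprin-1 and -0.02 with IgG, a description over genes that share their libraries. The part of length in these ratios was not tested.

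Transcript usage moved little within most genes. Among 3815 genes with at least 2 transcripts and a mean of at least 20 CPM, the transcript share that moved most did so by a median of 5.8 percentage points. This largest move was under 10 points in 70.1% of the genes, at least 20 points in 314 genes and at least 50 in 8 genes. For Cdsn, 1 transcript took 18.7% of the gene in shSCR and 95.4% in shCerS4 Caprin-1 precipitates, with 18.7% and 96.6% in the IgG libraries. For E2f3, an E2F factor gene, a transcript went from 57.3% to 4.2% with Caprin-1 and from 82.7% to 19.2% with IgG, while the gene's total ratio was -0.44. Traf6 moved by 76.2 points with Caprin-1 and 33.4 with IgG, Lrig2 by 59.3 and 42.6, Denn2b by -54.0 and -31.6 and Dmp1 by 52.0 and 36.2. Zfp24 (-56.7 points) and Arhgef11 (-54.7 points) moved with Caprin-1 and by -3.2 and -5.4 points with IgG. How reads were divided among transcripts was the authors' estimate, and the numbers of genes depended on the abundance filter, with 22 genes at 10 CPM and 1 at 50 CPM.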

How the data were processed

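RNA from 4 precipitates was sequenced as polyA libraries, and reads were handled with Partek and STAR on mm10, per the submitters' processing notes. Versions are not given in the sources used here. The deposited table is named as raw counts but holds CPM per transcript, with 0.0001 added by the authors to every value. That amount was subtracted and rows were summed by symbol. The depth of each library was estimated from the steps between low values, after which 79.7% to 81.3% of gene values under 40 CPM lay within 0.05 of a whole number of reads. A total of 3 reads is 0.111 and 0.122 CPM in the shSCR and shCerS4 Caprin-1 libraries. Intervals (exact binomial, Clopper-Pearson) cover counting error only, since amplified reads without molecular identifiers are not independent molecules. With 1 library per group no test was run.

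The members and the gene lists were chosen with earlier results of these data known. Named genes were, among called genes of at least 20 CPM without a predicted-gene symbol, the 25 highest and 25 lowest ratios and the 10 largest CPM differences in each direction, from each list its most abundant member and up to 5 called members in each direction, and Cers4, Cd274, Caprin1, G3bp1 and Shh always. Other list members are named with their values, and a few further genes were chosen after their values were seen. Some genes chosen this way are not reported here. Promoters, matched by symbol for 80.6% of genes at the first listed start, and gene positions are from RefSeq (GRCm38.p6). Alternatives were 4 other scalings, other filters, added reads, folds and thinning to equal depth, the most abundant transcript, values as deposited, and, for motifs, a 150-base window. The scripts were tested on simulated data. Python 3.11.15, numpy 2.4.6, pandas 2.3.3, scipy 1.17.1 and matplotlib 3.10.9 were used.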

Additional observations from a re-analysis of the deposited data

Results flagged for a closer look

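For 6 genes the ratio of shCerS4 over shSCR with Caprin-1 passed 2-fold and had the opposite sign in the IgG precipitates. In each, the IgG interval included 0, and the difference between the pairs was not tested. Rmrp, the RNA of the RNase MRP complex, stood at -1.10 [-1.66, -0.59] with Caprin-1 and 0.17 [-0.13, 0.48] with IgG. Zcchc10 stood at -1.08 and 0.12, and the predicted gene Gm27021 at -1.08 and 0.43. Castor2, an arginine sensor gene of the mTORC1 pathway, stood at 1.05 and -0.06, Amn1 at 1.16 and -0.05, and Tcp11l1 at 1.42 [1.01, 1.85] and -0.09 [-0.40, 0.21]. All 6 were of low abundance, with at most 12.1 CPM in the shSCR and 8.41 CPM in the shCerS4 Caprin-1 library.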

How the results depend on the processing

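Of 643 higher and 509 lower genes, a filter of 20 CPM left 353 and 333 and no filter gave 1270 and 927, as fewer or more genes were compared. A 4-fold rule gave 95 and 71 and a 1.5-fold rule 1975 and 1119. Trimmed-mean scaling moved the median over all genes from 0.146 to 0.001. Subtracting the chromosome median, chosen after seeing the data, gave 398 higher genes, beside 439 under trimmed-mean scaling. The cause of the chromosome offsets was not tested. A filter of 10 CPM gave 22 genes with a transcript share moved by 50 points and one of 50 CPM gave 1. Of 214 named genes 185 were called, and none of these 185 changed sign in a setting that gave it a value. For most settings this was fixed in advance. Called genes were at least 2-fold apart, scalings shifted log2 ratios by at most 0.14, and filters left ratios as they were. The sign of the other named genes was not compared between settings. Of 185 called, 151 kept the call in every setting that gave them a value. Losses numbered 21 under trimmed-mean, 18 under median-of-ratios and 14 under upper-quartile scaling, 29 after the chromosome median and 8 with the most abundant transcript. Within 150 bases around the start in place of 300, GCGGGAA occurred in 35.5% of replication promoters (5.19% of measured genes), TTTGAA in 73.9% and CCAAT in 69.6% of mitosis promoters (4.22% and 26.6%), the NF-kappaB element in 2 of 9 chemokine promoters (22.2%, against 0.736%) and the antioxidant element in 36.4% (25.2%). List medians were compared after subtracting the median of all genes in the same setting. On that measure 24 of 40 lists stayed within 0.129 of their main value in every setting. The 4 other scalings could not move this measure, since each shifts all ratios alike. The 40 include marker lists with 1 and 2 measured genes. No paired analysis was possible because each group has 1 library.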

Other observations

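Adm, the gene of the vasodilator peptide adrenomedullin, differed widely between the lines and was outside the rule for named genes because of its low mean. It had 2 estimated reads (0.074 CPM) in the shSCR Caprin-1 library and 339 (13.7 CPM) in the shCerS4 library, a log2 ratio of 7.22 [5.67, 10.59]. The 2 reads are under the 3 reads taken as the floor, so the size of this ratio is uncertain. The IgG libraries held 0.403 and 12.4 CPM, and the gene passed the 5 CPM filter only through the shCerS4 libraries. Igfbp7 and Igfbp4, genes of secreted proteins that bind insulin-like growth factors, went opposite ways among the abundant genes. Igfbp7 stood at 494 and 1268 CPM (1.36) and Igfbp4 at 2619 and 1277 CPM (-1.04). The actin gene Actg1 (-1.03), Ptma (-1.0) and D17H6S56E-5 (-1.42) were also among the lower genes that lost most CPM, and Btg1 (1.10), an antiproliferative gene, and Nfe2l1 (1.08), a proteasome regulator gene, were among the higher genes that gained most. Stbd1, which tethers glycogen to membranes, stood at 15 and 234 CPM (3.96), and the kinase-like scaffold gene Cask at 2.22 and 39.9 CPM (4.16).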
